A study of Mus musculus with 2 samples.

Results

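Pericyte-like cells made up 52 of the 6992 cells kept from a 93-week library of mouse neck lymphatic vessels and 54 of the 7308 cells of a 12-week library, 106 of 14300 in all. Their shares were 0.744% (exact Clopper-Pearson 95% interval 0.556 to 0.974) at 93 weeks and 0.739% (0.556 to 0.963) at 12 weeks. A cell belonged to the class if at least 3 of the 5 genes Rgs5, Kcnj8, Abcc9, Higd1b and Notch3 were detected, Pdgfra was not detected, the Actg2 value was below 1.5 and the Rgs5 value lay above the Myh11 value. The values are natural logs of 1 plus the unique molecular identifiers (UMIs, counted RNA molecules) of a gene scaled to 10000 per cell. Because the class was chosen on these genes, their levels are given as a description.

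The study profiled cells of the superficial cervical lymphatic system by droplet single-cell RNA sequencing at the 3' end, and its title asks how mechanical stimulation of these vessels bears on drainage of cerebrospinal fluid. The tissue was the afferent lymphatics of the submandibular lymph nodes. The aged group was FVB/N mice aged 93 weeks and the adult group FVB/N mice aged 12 weeks. Both groups carried the Prox1-GFP reporter, a green fluorescent protein expressed under Prox1 control, and in both the cells were sorted by flow cytometry, with a gate that the labels do not state. Each library pooled 6 mice, and nothing ties a cell to its mouse, so each age is 1 sample. No comparison between ages therefore has a replicate check, no p-value is given, and every interval covers counting error only.

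Pericytes are mural cells that sit in the basement membrane of capillaries and the smallest venules, where they touch the endothelium. Endothelial PDGF-B recruits them through the receptor PDGFRB, and Notch3 signalling maintains mural cells. Kcnj8 and Abcc9 encode the pore and the sulfonylurea receptor of the vascular ATP-sensitive potassium channel, Rgs5 encodes a regulator that ends G-protein signalling, and Higd1b encodes a mitochondrial protein of the hypoxia-inducible domain family. In collecting lymphatic vessels the contractile wall is made of smooth muscle cells, while pericytes belong to the blood capillaries that supply such tissue.

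Kcnj8 and Abcc9 are neighbours on chromosome 6, transcribed from the same strand with 0 protein-coding genes between them. Their sequences are shown with those of Rgs5 and Notch3 because these genes chose the class. The 250 bases before the RefSeq transcript start of 4 of the 5 marker genes are given 5′ to 3′ from RefSeq on the build GRCm38.p6, with capitals marking the core TGGGAA bound by Rbpj, the DNA-binding partner of Notch receptors. Rgs5 lies at chr1:169655251-169655500 on the plus strand. Kcnj8 lies at chr6:142571615-142571864, Abcc9 at chr6:142702275-142702524 and Notch3 at chr17:32166891-32167140, all on the minus strand. The starts used for Abcc9 and Notch3 lie inside the annotated span of the gene, so the Abcc9 window lies wholly and the Notch3 window partly within that span.
Rgs5: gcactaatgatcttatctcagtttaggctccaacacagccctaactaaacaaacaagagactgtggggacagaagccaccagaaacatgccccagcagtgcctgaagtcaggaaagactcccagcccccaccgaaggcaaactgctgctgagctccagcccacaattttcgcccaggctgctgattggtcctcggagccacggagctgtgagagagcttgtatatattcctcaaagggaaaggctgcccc
Kcnj8: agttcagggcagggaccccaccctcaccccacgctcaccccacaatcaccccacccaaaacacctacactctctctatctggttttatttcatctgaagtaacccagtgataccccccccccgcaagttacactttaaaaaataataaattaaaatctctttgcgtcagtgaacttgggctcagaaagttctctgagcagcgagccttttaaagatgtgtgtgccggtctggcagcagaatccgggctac
Abcc9: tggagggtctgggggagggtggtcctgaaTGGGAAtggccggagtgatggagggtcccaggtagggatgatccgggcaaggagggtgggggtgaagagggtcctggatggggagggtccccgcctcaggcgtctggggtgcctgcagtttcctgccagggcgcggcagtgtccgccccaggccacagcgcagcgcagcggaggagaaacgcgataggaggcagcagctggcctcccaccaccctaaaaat
Notch3: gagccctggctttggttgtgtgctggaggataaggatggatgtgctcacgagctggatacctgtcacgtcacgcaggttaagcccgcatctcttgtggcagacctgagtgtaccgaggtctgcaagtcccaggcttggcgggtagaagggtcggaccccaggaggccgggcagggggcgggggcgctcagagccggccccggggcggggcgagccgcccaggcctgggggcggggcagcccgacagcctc
Searched on both strands, TGGGAA occurred in 1 of these 4 windows, in Abcc9 at 221 to 216 bases before the start, and in 21.6% of 32851 mouse promoter windows of the same length. The core ACGTG, part of the hypoxia response element, occurred in Notch3 at 186 to 182 bases before the start and in 16.6% of all windows. The E-box letters CANNTG occurred in Kcnj8 and Abcc9 and in 66.2% of all windows. None of the 4 windows held a CArG box, the binding motif of serum response factor, which occurred in 1.47% of all windows. These matches describe letters and say nothing of binding.

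The tables of both ages overlapped in their cell barcodes. Of the 13969 barcodes in the 93-week table, 6977 (49.9%) also stood in the 12-week table, where they made up 95.5% of the cells. They were counted once, as 12-week cells. Among the 54 pericyte-like cells of the 12-week library, 51 stood under such a barcode, and 40 of these also met the rule with their values in the 93-week table, at a median of 3402 UMIs there and 6694 UMIs in the 12-week table. As deposited, the 93-week table held 100 pericyte-like cells, 48 of them under shared barcodes. The labels do not say how the shared barcodes arose, and which age those cells came from cannot be told from the tables.

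In sequencing depth, pericyte-like cells held 254286 UMIs at 93 weeks and 371116 at 12 weeks. The median per cell was 4821 (range 2000 to 10640) at 93 weeks and 6688 (1725 to 16005) at 12 weeks. The cells most like them were smooth muscle-like cells with a Myh11 value of at least 1.5, no Pdgfra and at least 3 of Acta2, Tagln, Mylk, Cnn1 and Lmod1, split at an Actg2 value of 1.5. The Actg2-low kind counted 144 cells at 93 weeks and 162 at 12 weeks (medians of 5679.5 UMIs at 93 weeks and 5965 at 12 weeks), and the Actg2-high kind 27 at 93 weeks and 61 at 12 weeks. Sex, called per cell from Xist and Y-linked genes, was female in 28 of 43 called pericyte-like cells at 93 weeks and in 29 of 48 at 12 weeks.

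The marker rule was met by different numbers of markers. At 93 weeks 15 cells had 3 of the 5 markers, 26 had 4 and 11 had all 5, against 10, 21 and 23 cells at 12 weeks. Of the cells with 3 or more markers, 179 at 93 weeks and 213 at 12 weeks, most that were left out held Pdgfra (50 cells at 93 weeks and 75 at 12 weeks) or had Rgs5 not above Myh11 (60 at 93 weeks and 46 at 12 weeks). Too much Actg2 left out 17 cells at 93 weeks and 38 at 12 weeks. Close to the thresholds, the smallest margin of Rgs5 over Myh11 inside the class was 0.361 at 93 weeks and 0.153 at 12 weeks on the natural log scale. A further 7 cells at 93 weeks and 8 at 12 weeks met all else with exactly 2 markers. The highest Actg2 value inside the class was 0 at 93 weeks and 1.25 at 12 weeks, and the lowest outside it was 1.88, found at 12 weeks.

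Rgs5 was the most abundant marker. Single cells held 1.55 to 181 Rgs5 UMIs per 10000 with a median of 31.9 at 93 weeks, and 2.33 to 112 with a median of 22.4 at 12 weeks. In the summed UMIs of the class, scaled to 1000000 UMIs (CPM), the Rgs5 level was 4463 CPM at 93 weeks and 2700 CPM at 12 weeks. Every cell of both ages held the transcript, which the rule forces by asking for Rgs5 above Myh11, and the ranges overlapped. The same gene stood at 531 CPM in 93-week and 195 CPM in 12-week Actg2-low smooth muscle-like cells.

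Both channel genes were absent from some of the cells. Kcnj8 ranged from 0 to 32.3 UMIs per 10000 with a median of 2.31 at 93 weeks and from 0 to 35.6 with a median of 5.14 at 12 weeks, with none in 17 cells at 93 weeks and 11 at 12 weeks. Abcc9 ranged from 0 to 36.1 with a median of 7.59 at 93 weeks and from 0 to 42.7 with a median of 7.44 at 12 weeks, with none in 13 cells at 93 weeks and 5 at 12 weeks. The ages overlapped over nearly their whole ranges for both genes. Notch3, the mural Notch receptor, had a median of 8.14 UMIs per 10000 at 93 weeks and 6.30 at 12 weeks. Higd1b had a median of 2.05 at 93 weeks and 1.01 at 12 weeks, with 21 cells at 0 at 93 weeks and 24 at 12 weeks.

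To count genes at 1 depth, cells already chosen at full depth were thinned to 3000 UMIs each. This kept 48 pericyte-like cells at 93 weeks and 52 at 12 weeks. The rule was not applied again, so the choice of cells still rests on unequal depths. Kcnj8 was then found in 45.8% of the cells at 93 weeks (67.3% unthinned) and 69.2% at 12 weeks (79.6% unthinned). Abcc9 was found in 72.9% at 93 weeks (75% unthinned) and 78.9% at 12 weeks (90.7% unthinned). Because the rule chose the class on both genes, their shares here are set in part by the rule and are a description. Blood endothelial-like cells are a class that should lack these genes. Thinned cells of that class held Kcnj8 in 1.72% at 93 weeks and 1.15% at 12 weeks. They held Abcc9 in 1.72% at 93 weeks and 1.92% at 12 weeks. The unthinned medians of that class were 6167.5 UMIs at 93 weeks and 6654 at 12 weeks. Thinned fibroblast-like cells held both genes more often than that class. Kcnj8 was found in 10.6% of them at 93 weeks and 8.19% at 12 weeks, and Abcc9 in 29.8% at 93 weeks and 18.6% at 12 weeks. Thinned Higd1b was found in 43.8% of pericyte-like cells at 93 weeks and 36.5% at 12 weeks, and Notch3 in 89.6% at 93 weeks and 84.6% at 12 weeks. Thinned Actg2-low smooth muscle-like cells held Higd1b in 32.9% at 93 weeks and 34.8% at 12 weeks and Notch3 in 92.1% at 93 weeks and 89.9% at 12 weeks, close to the pericyte-like shares. They held Kcnj8 in 2.86% at 93 weeks and 2.53% at 12 weeks and Abcc9 in 10.0% at 93 weeks and 11.4% at 12 weeks. Actg2-high smooth muscle-like cells held both channel genes far more often, Kcnj8 in 32.0% of 25 thinned cells at 93 weeks and 48.3% of 58 at 12 weeks and Abcc9 in 52.0% at 93 weeks and 65.5% at 12 weeks. The exact 95% intervals of these Actg2-high shares, which cover cells of 1 library each, overlapped those of pericyte-like cells. No contrast of classes in these genes is a test, since they chose the pericyte-like cells.

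**Figure D1:**
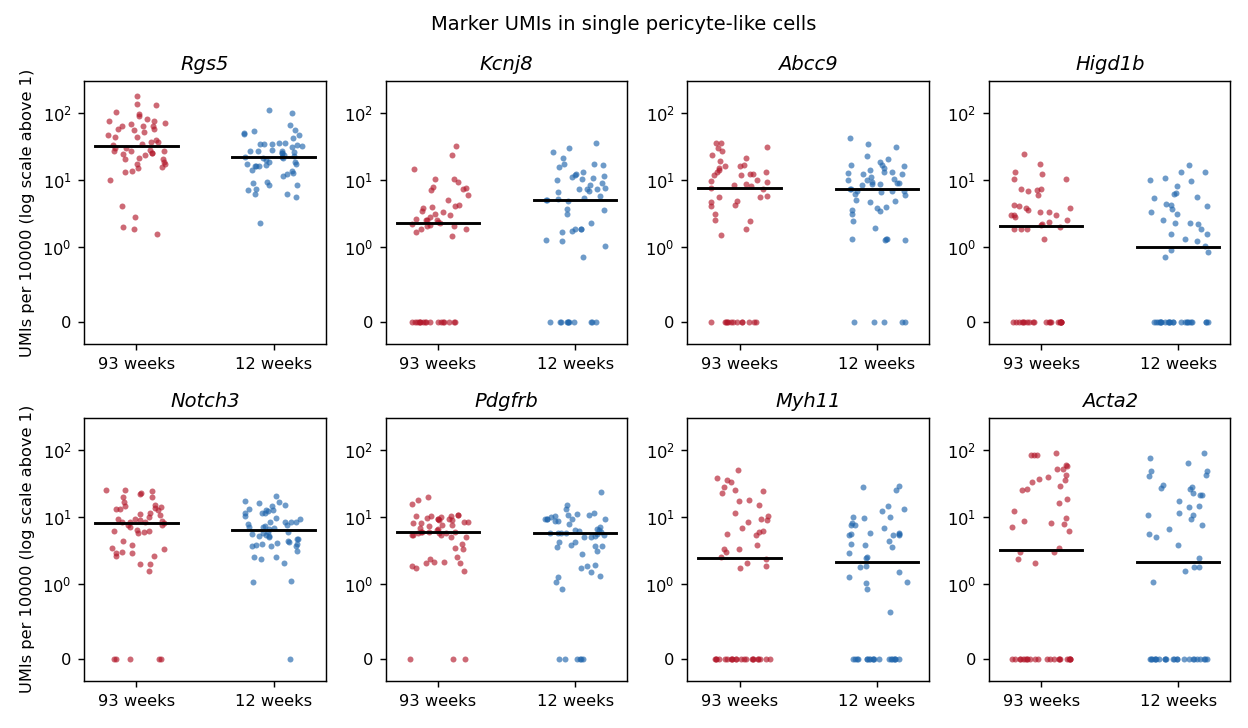
Each point is 1 pericyte-like cell (52 at 93 weeks in red, 54 at 12 weeks in blue), the vertical axis gives UMIs of the gene per 10000 UMIs of the cell on a log scale above 1, and black lines are medians. Rgs5 is found in every cell because the rule requires it, with medians of 31.9 at 93 weeks and 22.4 at 12 weeks. Acta2 is absent from 22 cells at 93 weeks and 23 at 12 weeks and reaches 89.1 at 93 weeks and 90.6 at 12 weeks in others.

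The label was checked on 15 pericyte markers that the rule did not use. All 15 were found at both ages, with a summed level of 36.2 UMIs per 10000 in the median cell at 93 weeks and 36.8 at 12 weeks. Pdgfrb, the receptor through which pericytes are recruited, stood at 653 CPM against 254 CPM in Actg2-low smooth muscle-like cells at 93 weeks and 525 CPM against 290 CPM at 12 weeks, log2 ratios of 1.36 (95% counting interval 1.06 to 1.66) at 93 weeks and 0.85 (0.59 to 1.12) at 12 weeks. Steap4, a metalloreductase, stood at 696 CPM against 29.8 CPM in smooth muscle-like cells at 93 weeks and 827 CPM against 30.4 CPM at 12 weeks. Vtn, which encodes vitronectin, stood at 271 CPM against 48.9 CPM in smooth muscle-like cells at 93 weeks and 517 CPM against 40.9 CPM at 12 weeks.

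As a set, the 11 of the 15 that were measured were not raised over Actg2-low smooth muscle-like cells. Their median log2 ratios were 0.04 at 93 weeks and -0.35 at 12 weeks. Cspg4, the NG2 proteoglycan widely used to stain pericytes, was lower than in smooth muscle-like cells, at 59.0 CPM against 158 CPM in smooth muscle-like cells at 93 weeks and 43.1 CPM against 149 CPM at 12 weeks. Ndufa4l2, a mitochondrial protein (633 CPM against 541 CPM in smooth muscle-like cells at 93 weeks and 466 CPM against 444 CPM at 12 weeks), and Cox4i2, a cytochrome oxidase subunit (279 CPM against 290 CPM in smooth muscle-like cells at 93 weeks and 194 CPM against 176 CPM at 12 weeks), lay close to the smooth muscle level. Of 11 such markers that were measured, 2 were 2-fold or more higher in both libraries (Steap4 and Vtn) and 2 were 2-fold or more lower (Cspg4 and Nrip2), beside 5.34% and 7.62% of all measured genes. A gene was measured if it had a UMI in 10% or more of the cells of either class and 50 or more UMIs in both classes together.

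Neighbours in expression gave a second description. Among mural cells placed by 10 principal components of 1000 variable genes without the genes of the rule, the 15 nearest neighbours of a pericyte-like cell were pericyte-like in 96.7% (median, 93 weeks) and 100% (12 weeks), against a median of 0% for smooth muscle-like cells. Most neighbours were pericyte-like for 35 of 52 cells at 93 weeks and 47 of 54 at 12 weeks. Pericyte-like cells made up 21.2% of the mural cells. The separation is not independent of the rule, since the same cells gave the genes left in and those taken out. Acta2, Tagln, Mylk, Cnn1 and Lmod1, which helped to choose the smooth muscle-like cells, were not taken out. The split is therefore tied to how the classes were defined.

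Markers of other cell types were counted within the class, with no doublet caller run. The 10 blood endothelial markers gave 73 UMIs at 93 weeks, in 11 of 52 cells, and 389 UMIs at 12 weeks, in 30 of 54 cells, which is 287 CPM at 93 weeks and 1048 CPM at 12 weeks, and all 10 genes were found at both ages. Cells with 3 or more of these genes numbered 4 at 93 weeks and 6 at 12 weeks. At 93 weeks, 1 cell held all 10 of them and no UMI of Kcnj8, Notch3, Pdgfrb or Acta2. Single cells at 12 weeks held up to 9 of them. Fibroblast markers gave 814 CPM at 93 weeks and 663 CPM at 12 weeks, with Pdgfra at 0 by the rule. Ptprc, the marker of blood leukocytes, was at 0 in both libraries, and the 8 immune markers together gave 17 UMIs at 93 weeks and 29 at 12 weeks. Lymphatic endothelial markers gave 6 UMIs at 93 weeks and 28 at 12 weeks, and adipocyte markers were at 0 in both libraries. Gland and epithelial markers gave 76 UMIs at 93 weeks and 7 at 12 weeks, with Epcam, Krt8, Krt18, Cdh1 and Smgc at 0 in both. The part of these transcripts in the age differences below was not tested except where a value without the cells is given.

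Set against Actg2-low smooth muscle-like cells, pericyte-like cells held more Ednrb, Cyp4b1, Cdh2, Dlk1 and Rgs16 and at most 1 UMI per library of Kcnma1, Kcnmb1 or Ryr2. Of 3558 genes measured in both libraries, 190 (5.34%) were 2-fold or more higher in pericyte-like cells in both, 271 (7.62%) were 2-fold or more lower in both, and 1 went opposite ways. Within single libraries, 8.42% of 3610 genes were higher and 10.9% lower at 93 weeks, and 10.2% of 4597 genes were higher and 11.9% lower at 12 weeks. The median log2 ratio of all measured genes was -0.04 at 93 weeks and -0.09 at 12 weeks. Both classes were chosen by their expression, so these folds describe the classes, and Kcnj8 among the higher genes and Cnn1 among the lower ones belong to the rules.

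Ednrb, the endothelin B receptor, came first when genes were ranked by the smaller of their ratios in both libraries. It had 98 UMIs in pericyte-like cells against 2 in smooth muscle-like cells at 93 weeks (385 against 2.39 CPM) and 208 against 4 UMIs at 12 weeks (560 against 3.80 CPM). The log2 ratios were 6.83 (95% counting interval 5.44 to 10.40) at 93 weeks and 6.87 (5.82 to 9.09) at 12 weeks. A UMI of Ednrb was found in 38.5% of the pericyte-like cells at 93 weeks and 48.1% at 12 weeks, against 1.39% of smooth muscle-like cells at 93 weeks and 1.23% at 12 weeks. Thinned to 3000 UMIs, the shares were 31.2% against 0.714% at 93 weeks and 40.4% against 1.27% at 12 weeks, and 27.6% of blood endothelial-like cells at 93 weeks held it too. Ednra, the endothelin A receptor, showed no such separation, at 216 CPM against 222 CPM in smooth muscle-like cells at 93 weeks and 162 CPM against 179 CPM at 12 weeks.

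Other genes with high ratios covered metabolism, adhesion and signalling. Cyp4b1, a cytochrome P450 enzyme, stood at 267 CPM against 5.97 CPM in smooth muscle-like cells at 93 weeks and 383 CPM against 5.71 CPM at 12 weeks. Dlk1, a delta-like membrane protein related to Notch ligands, stood at 586 CPM against 22.7 CPM in smooth muscle-like cells at 93 weeks and 458 CPM against 18.1 CPM at 12 weeks. Cdh2, N-cadherin, which joins pericytes to endothelium, stood at 181 CPM against 5.97 CPM in smooth muscle-like cells at 93 weeks and 140 CPM against 2.85 CPM at 12 weeks. The log2 ratios of these 3 genes lay between 4.59 and 5.84 in both libraries. Rgs16, another regulator of G-protein signalling, reached 617 CPM against 26.3 CPM in smooth muscle-like cells at 93 weeks and 1730 CPM against 62.8 CPM at 12 weeks. Enpp2, the enzyme autotaxin that makes lysophosphatidic acid, had log2 ratios of 5.20 at 93 weeks and 4.23 at 12 weeks, and Adamts12, a secreted metalloprotease, of 4.19 at 93 weeks and 4.24 at 12 weeks. Interferon-inducible genes were among the highest as well, with log2 ratios of 3.98 at 93 weeks and 4.46 at 12 weeks for Ifi203 and of 3.96 at 93 weeks and 4.14 at 12 weeks for Ifitm1, which encodes a membrane protein. Actg2-high smooth muscle-like cells held some of these genes too. Enpp2 stood there at 158 CPM at 93 weeks and 304 CPM at 12 weeks, against 299 and 393 CPM in pericyte-like cells. Rgs16 stood there at 248 and 365 CPM and Ifitm1 at 264 and 207 CPM, in the same order of ages. Cyp4b1 was at 5.63 and 6.55 CPM there, and Dlk1 at 0 and 10.9 CPM.

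H2-M9, a gene of the non-classical class I family, had 58 UMIs against 0 in smooth muscle-like cells at 93 weeks, at least 63.7-fold higher against a floor of 3 UMIs over the class. At 12 weeks it had 98 against 8 UMIs (log2 ratio 4.94). Actg2-high smooth muscle-like cells held it at 113 CPM at 93 weeks, against 228 CPM in pericyte-like cells, and at 0 CPM at 12 weeks. Class I genes resemble each other closely, and the labels do not say how reads shared by such copies were counted, so the value is uncertain.

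The genes with the lowest ratios included ion channels and contractile genes of smooth muscle. Kcnma1, the pore of the large-conductance calcium-activated potassium channel, had 0 of 254286 UMIs in pericyte-like cells at 93 weeks and 0 of 371116 at 12 weeks, against 132 UMIs in smooth muscle-like cells at 93 weeks and 177 at 12 weeks. Against the same floor of 3 UMIs over the class, it was at least 13.4-fold lower at 93 weeks and at least 20.8-fold lower at 12 weeks. Its beta subunit gene Kcnmb1 had 1 UMI against 52 at 93 weeks and 0 against 59 at 12 weeks. Neither channel gene was detectable beyond 1 UMI in the 106 cells.

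Ryr2, the ryanodine receptor of intracellular calcium stores, had 1 UMI against 96 in smooth muscle-like cells at 93 weeks and 1 against 146 at 12 weeks, log2 ratios of -4.55 (-10.18 to -2.35) at 93 weeks and -5.24 (-11.00 to -3.19) at 12 weeks. P2rx1, an ATP-gated cation channel, had 1 UMI against 80 at 93 weeks and 0 against 54 at 12 weeks. Ppargc1a, a coactivator of mitochondrial genes, had 0 UMIs against 55 at 93 weeks and 1 against 91 at 12 weeks. The order of these genes among themselves cannot be read at such counts. Smtn, the contractile protein smoothelin (log2 -3.23 at 93 weeks and -4.03 at 12 weeks), Itga8, an integrin subunit of smooth muscle (-3.74 at 93 weeks and -4.55 at 12 weeks), and Slc22a3, an organic cation transporter (-3.98 at 93 weeks and -4.43 at 12 weeks), were found in pericyte-like cells at low levels. The others with the lowest ratios were Plin4, Fbxl22, Chchd10 and Cnn1.

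**Figure D2:**
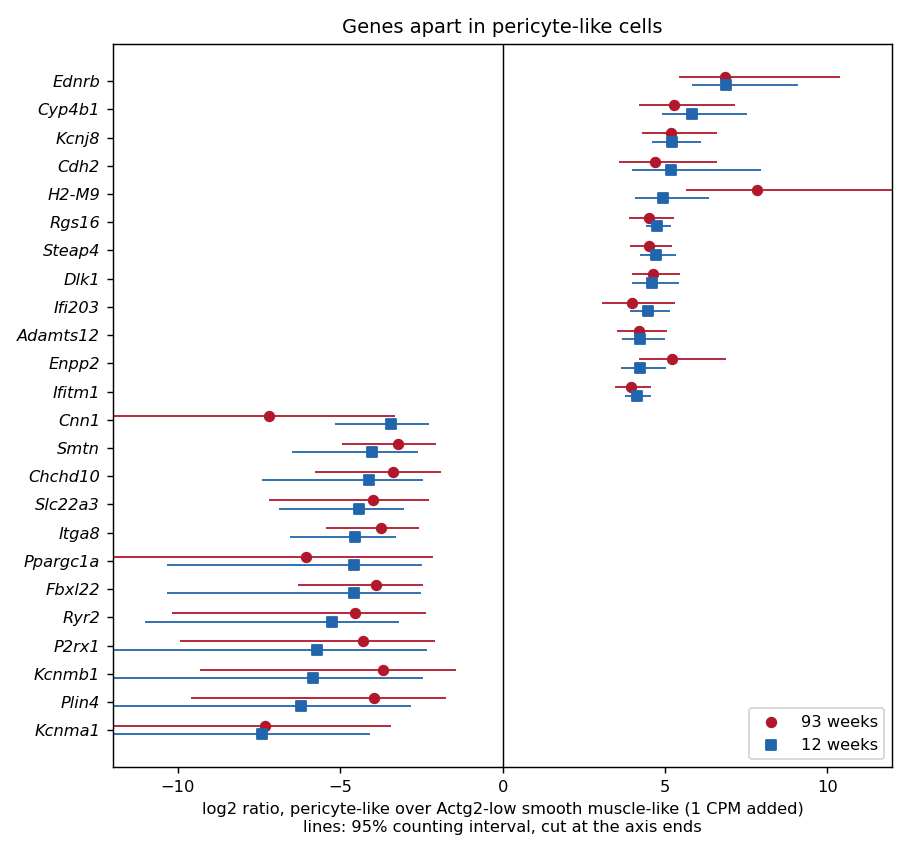
Genes with the highest and lowest log2 ratios of pericyte-like over Actg2-low smooth muscle-like CPM (1 CPM added) are shown for the 93-week library (red circles) and the 12-week library (blue squares), with 95% counting intervals that stop at the axis ends. Ednrb stands at 6.83 at 93 weeks and 6.87 at 12 weeks, and points with an interval running to the axis end rest on 0 UMIs in 1 class, where the point depends on the added CPM.

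Channel and calcium genes as lists went the same way with exceptions. Of 8 potassium channel genes measured, 4 were lower and 1 was higher in both libraries, with medians of -1.05 at 93 weeks and -1.78 at 12 weeks beside -0.04 at 93 weeks and -0.09 at 12 weeks for all genes. The higher one was Kcnq5, a voltage-gated potassium channel, at 621 CPM against 31.0 CPM in smooth muscle-like cells at 93 weeks and 666 CPM against 45.7 CPM at 12 weeks (log2 4.28 at 93 weeks and 3.84 at 12 weeks). Its transcript was found in 33 of 52 pericyte-like cells at 93 weeks and 38 of 54 at 12 weeks. Among 11 calcium and chloride genes 5 were lower and 1 was higher. The higher one was Ano1, the calcium-activated chloride channel, at 484 CPM against 155 CPM in smooth muscle-like cells at 93 weeks and 534 CPM against 110 CPM at 12 weeks. Pln, which encodes the calcium pump regulator phospholamban, was lower, at 51.1 CPM against 454 CPM in smooth muscle-like cells at 93 weeks and 13.5 CPM against 370 CPM at 12 weeks. Cacna1c, the L-type calcium channel pore, was close to level, at 578 CPM against 526 CPM in smooth muscle-like cells at 93 weeks and 633 CPM against 616 CPM at 12 weeks.

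Of 10 contractile genes outside the rules, 0 were 2-fold or more higher and 6 were lower in both libraries, with medians of -1.61 at 93 weeks and -2.24 at 12 weeks. Myl9, the regulatory light chain, stood at 1097 CPM against 4378 CPM in smooth muscle-like cells at 93 weeks and 833 CPM against 3074 CPM at 12 weeks, and Tpm2, a tropomyosin, at 1376 CPM against 7210 CPM in smooth muscle-like cells at 93 weeks and 957 CPM against 5788 CPM at 12 weeks. Myocd, the coactivator of the smooth muscle gene programme, stood at 39.3 CPM against 186 CPM in smooth muscle-like cells at 93 weeks and 16.2 CPM against 220 CPM at 12 weeks. These contractile transcripts were lower and still present. Mural transcription factors included 2 of 13 that were higher in both, Zeb2 (1117 CPM against 448 CPM in smooth muscle-like cells at 93 weeks and 1619 CPM against 545 CPM at 12 weeks) and Ebf1 (2320 CPM against 926 CPM in smooth muscle-like cells at 93 weeks and 2870 CPM against 1412 CPM at 12 weeks).

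Matrix genes separated by type. Of 12 fibrillar matrix genes measured 7 were higher and 2 lower in pericyte-like cells, with medians of 1.19 at 93 weeks and 1.6 at 12 weeks. Col3a1, a fibrillar collagen, stood at 1074 CPM against 142 CPM in smooth muscle-like cells at 93 weeks and 649 CPM against 138 CPM at 12 weeks, and Postn, the matricellular protein periostin, at 256 CPM against 26.3 CPM in smooth muscle-like cells at 93 weeks and 280 CPM against 24.7 CPM at 12 weeks. Col6a1 stood at 271 CPM against 38.2 CPM in smooth muscle-like cells at 93 weeks and 358 CPM against 59.0 CPM at 12 weeks. The 2 lower ones were Fn1, fibronectin, and Eln, elastin, with Eln at 74.7 CPM against 240 CPM in smooth muscle-like cells at 93 weeks and 83.5 CPM against 218 CPM at 12 weeks. Basement membrane genes were split, with 2 of 12 higher (Sparc and Nid1) and 2 lower (Lama5 and Col4a5).

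In the guidance and chemokine lists more genes were higher than lower. Of 6 axon guidance genes 3 were higher and 1 was lower, led by Nrp1, a co-receptor of semaphorins and VEGF, at 385 CPM against 52.5 CPM in smooth muscle-like cells at 93 weeks and 418 CPM against 55.2 CPM at 12 weeks. Of 7 chemokine, cytokine and adhesion genes 5 were higher and 1 was lower, with medians of 2.07 at 93 weeks and 3.11 at 12 weeks. Il6, an inflammatory cytokine, stood at 1066 CPM against 105 CPM in smooth muscle-like cells at 93 weeks and 1423 CPM against 164 CPM at 12 weeks, and Cxcl1, which attracts neutrophils, at 1663 CPM against 343 CPM in smooth muscle-like cells at 93 weeks and 3177 CPM against 404 CPM at 12 weeks. Fibroblast-like cells also hold these 2 transcripts, at up to 362 CPM for Il6 and 3051 CPM for Cxcl1. The lower one was Ccrl2, a chemokine receptor-like gene, with 2 UMIs in pericyte-like cells at 93 weeks and 5 at 12 weeks.

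Class I presentation genes were higher in 4 of 7, with medians of 1.20 at 93 weeks and 2.10 at 12 weeks. B2m, the light chain of class I molecules, stood at 374 CPM against 135 CPM in smooth muscle-like cells at 93 weeks and 1654 CPM against 246 CPM at 12 weeks. Interferon response genes were higher in 2 of 6, Bst2 and Iigp1, an interferon-induced GTPase. Respiratory chain genes, 25 in all, were nearly all below the 2-fold limit, with 0 higher, 1 lower (Ndufa4) and medians of -0.59 at 93 weeks and -0.52 at 12 weeks.

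Pericyte-like cells differed among themselves in smooth muscle actin. Acta2 was absent in 22 of 52 cells at 93 weeks and 23 of 54 at 12 weeks, below 10 UMIs per 10000 in 11 at 93 weeks and 11 at 12 weeks, and at 10 or more in 19 at 93 weeks and 20 at 12 weeks. Tagln, which encodes an actin-binding protein of smooth muscle and was not used by the rule, stood at 285, 663 and 3491 CPM from no to high Acta2 at 93 weeks and at 54.7, 751 and 2559 CPM at 12 weeks. Acta2 and Tagln correlated across cells at a Pearson r of 0.83 at 93 weeks (n = 52 cells of 1 library) and 0.84 at 12 weeks (n = 54), and cells of a library share their source and differ in depth.

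The levels of the channel genes by Acta2 are tied to the rule and are given as a description. A cell with neither Kcnj8 nor Abcc9 could enter only with Rgs5, Higd1b and Notch3 together, and of 9 such cells at 93 weeks 8 had high Acta2, as did 3 of 3 at 12 weeks. Kcnj8 stood at 533, 410 and 202 CPM in cells with no, low and high Acta2 at 93 weeks, and at 944, 440 and 447 CPM at 12 weeks. Abcc9 stood at 1260, 1131 and 350 CPM at 93 weeks, and at 1094, 738 and 582 CPM at 12 weeks.

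Rgs5 ran with Acta2, at 2942, 4076 and 6430 CPM at 93 weeks and 2148, 2967 and 3107 CPM at 12 weeks. The rule itself ties these genes, because a cell with much Myh11 was kept only if its Rgs5 was higher still. Steap4 stood at 919, 663 and 456 CPM at 93 weeks and at 889, 1101 and 623 CPM at 12 weeks, lowest with high Acta2 at both ages. Vtn had no common order, at 340, 312 and 170 CPM at 93 weeks and 369, 389 and 731 CPM at 12 weeks. Cnn1, a marker of mature smooth muscle, was at 0 in all 3 groups at 93 weeks and at 0, 0 and 33.8 CPM at 12 weeks.

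**Figure D3:**
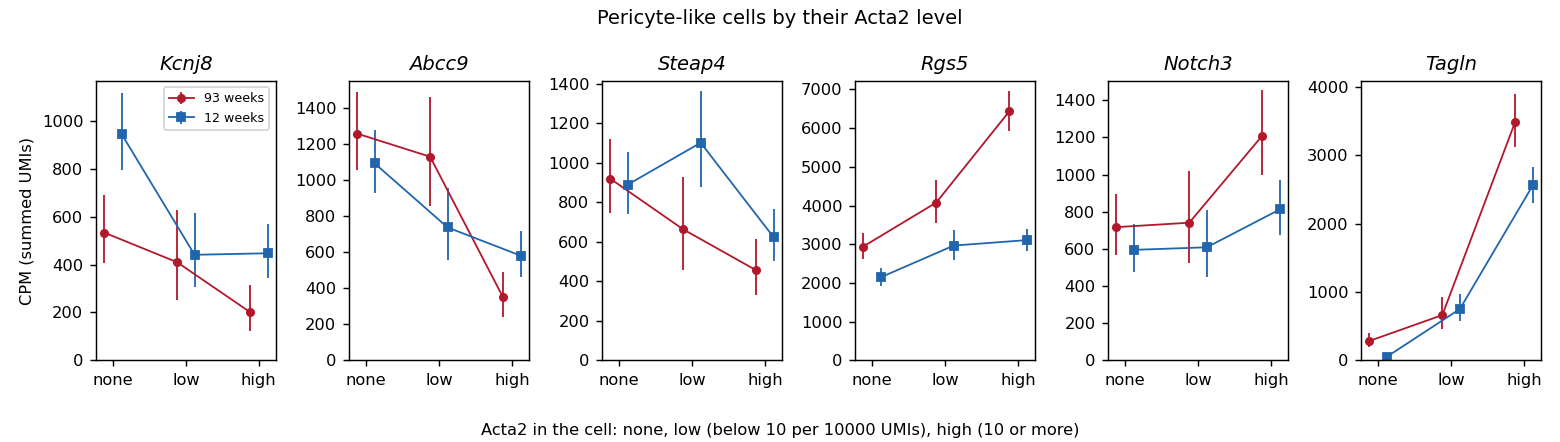
Summed levels in CPM are shown for pericyte-like cells with no, low (below 10 per 10000 UMIs) and high Acta2 (22, 11 and 19 cells at 93 weeks in red, 23, 11 and 20 at 12 weeks in blue), with exact 95% Poisson intervals of the counts. Kcnj8 and Abcc9, which the rule used, stand at 533 and 1260 CPM without Acta2 at 93 weeks, and Tagln is highest with high Acta2 (3491 CPM at 93 weeks).

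Between the ages, most measured genes of class I antigen presentation and of the interferon response were lower in 93-week pericyte-like cells, by medians of -1.41 and -1.88 on the log2 scale. Among the 2368 genes that could be measured, 45 (1.9%) reached a 2-fold higher level at 93 weeks and 138 (5.83%) a 2-fold lower one, with a median log2 ratio of 0.03. A gene could pass this filter through the cells of 1 age alone, so the counts and list medians below are a description. In Actg2-low smooth muscle-like cells, 30 of 5186 genes (0.578%) were higher and 107 (2.06%) were lower, with a median of -0.02. The classes differ in their numbers of cells and UMIs, and these percentages were not compared further. The markers that chose the class had log2 ratios of 93-week over 12-week CPM of 0.73 for Rgs5, -0.73 for Kcnj8, 0.13 for Abcc9, 0.34 for Higd1b and 0.40 for Notch3. Kcnj8 was past 2-fold lower in thinned cells (-1.02), in female cells (-1.20) and without the condition of Rgs5 above Myh11 (-1.09), and Rgs5 past 2-fold higher without cells holding a blood endothelial marker (1.10).

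B2m was found in 35 of 52 cells at 93 weeks and 53 of 54 at 12 weeks, at 0 to 15.4 UMIs per 10000 with a median of 3.08 at 93 weeks and 0 to 46.5 with a median of 14.7 at 12 weeks. H2-D1, a classical class I heavy chain, ranged from 0 to 22.7 with a median of 4.03 at 93 weeks and from 0 to 59.9 with a median of 17.0 at 12 weeks. H2-K1, the other classical heavy chain, had medians of 1.81 at 93 weeks and 5.30 at 12 weeks. The 93-week cells were the lower ones for all 3 genes, with overlapping ranges. Thinned to 3000 UMIs per cell, B2m was found in 52.1% of the cells at 93 weeks and 96.2% at 12 weeks, against 37.1% at 93 weeks and 39.2% at 12 weeks of smooth muscle-like cells. The log2 ratios were -2.14 (95% counting interval -2.47 to -1.83) for B2m, -1.86 (-2.13 to -1.6) for H2-D1 and -1.72 (-2.15 to -1.33) for H2-K1. In Actg2-low smooth muscle-like cells the ratios were -0.86, -1.53 and -0.71 for the same genes, and the difference between the classes was not tested.

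The immunoproteasome subunit Psmb8 had a log2 ratio of -2.25 (-3.40 to -1.32) on 10 UMIs at 93 weeks and 71 at 12 weeks, and Psmb9 one of -1.43. Tapbp, the tapasin that loads peptides, had -1.11 (-2.04 to -0.29), while Psme1 and Psmb10 had -0.50 and -0.51 with intervals that reach above 0. Of 10 class I genes measured, of 15 listed, 7 were 2-fold or more lower and 0 higher, with a median of -1.41, beside 5.83% lower and a median of 0.03 for all measured genes. In smooth muscle-like cells 1 of 7 was lower, with a median of -0.21. The measured genes differ between the classes, so the medians do not cover the same genes. No class II gene of 7 was measured in either class.

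Iigp1 was found in 17 of 52 cells at 93 weeks and in 42 of 54 at 12 weeks. Its level was 0 to 43.1 UMIs per 10000 with a median of 0 at 93 weeks and 0 to 88.3 with a median of 10.6 at 12 weeks, which summed to 311 CPM at 93 weeks and 2379 CPM at 12 weeks (log2 -2.93, interval -3.29 to -2.60). Irf1, a transcription factor induced by interferon gamma, had a median of 0 and 334 CPM at 93 weeks and a median of 7.60 and 1237 CPM at 12 weeks (log2 -1.88, interval -2.24 to -1.55). Rnf213, an interferon-induced ubiquitin ligase, had 19 UMIs at 93 weeks and 212 at 12 weeks (log2 -2.92, interval -3.70 to -2.26). Thinned to 3000 UMIs per cell, Iigp1 was found in 31.2% of pericyte-like cells at 93 weeks and 71.2% at 12 weeks, and in 2.86% of smooth muscle-like cells at 93 weeks and 9.49% at 12 weeks. All 3 genes were lower at 93 weeks in smooth muscle-like cells too, by log2 ratios of -4.36 for Iigp1, -0.96 for Irf1 and -2.43 for Rnf213. The values of Iigp1 and Rnf213 there rest on few cells. Over both ages, 1 cell held 75.3% of the Iigp1 UMIs of male smooth muscle-like cells and 1 cell held 60% of those of female ones. For Rnf213, 1 cell held 63.6% in male cells and 25% in female cells.

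Of 13 interferon response genes measured, of 27 listed, 11 were 2-fold or more lower and 0 higher, with a median of -1.88. Gbp5 and Ifit1 passed the filter through their 12-week cells alone, so they could only be counted as lower. In smooth muscle-like cells 4 of 9 were lower, with a median of -0.96, again over a different set of measured genes. Ifi27, an interferon-induced gene, was among those not past 2-fold in pericyte-like cells, at a log2 ratio of -0.26. Isg15, a ubiquitin-like protein, was among the lower genes at -1.07 and was higher in smooth muscle-like cells at 0.51. For Gbp5 (2 UMIs at 93 weeks and 113 at 12 weeks) and Ifit1 (3 UMIs at 93 weeks and 87 at 12 weeks) 1 cell held over 20% of the UMIs, so their ratios rest on few cells.

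**Figure D4:**
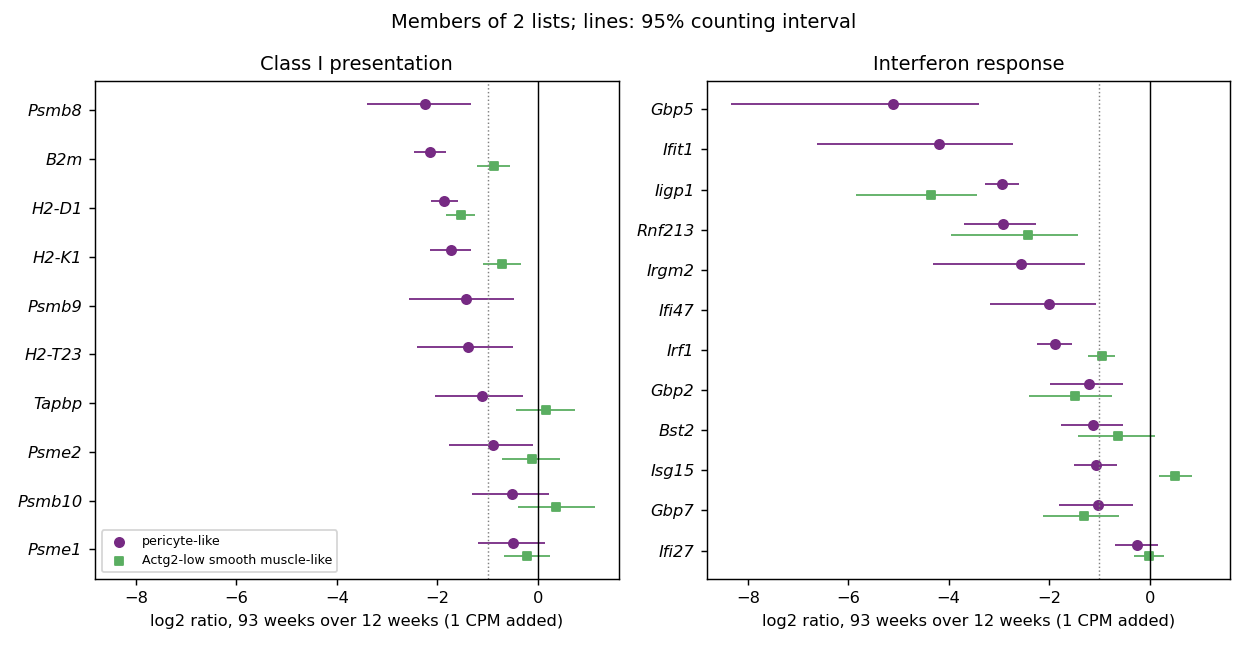
Log2 ratios of 93-week over 12-week CPM (1 CPM added) are shown for measured members of the class I and interferon lists, 1 interferon member left out, in pericyte-like cells (purple circles) and, where measured, Actg2-low smooth muscle-like cells (green squares), with 95% counting intervals. B2m stands at -2.14 in pericyte-like and -0.86 in smooth muscle-like cells and Iigp1 at -2.93 in pericyte-like and -4.36 in smooth muscle-like cells. The smooth muscle-like values of Iigp1 and Rnf213 rest on few cells, and the dotted line marks a 2-fold lower level.

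Summed per cell, the class I list gave 1.5 to 56.7 UMIs per 10000 with a median of 14.5 at 93 weeks, against 2.03 to 169 with a median of 48.8 at 12 weeks. Only 2 of the 52 cells at 93 weeks exceeded the 12-week median, and 50 of the 54 cells at 12 weeks exceeded the 93-week median. The interferon list gave 0 to 104 with a median of 13.8 at 93 weeks, against 1.31 to 230 with a median of 43.0 at 12 weeks. There 5 cells at 93 weeks exceeded the 12-week median, and 44 cells at 12 weeks exceeded the 93-week median. The difference was spread over most cells of the class. In smooth muscle-like cells the class I medians were 5.76 at 93 weeks and 8.26 at 12 weeks and the interferon medians 6.67 at 93 weeks and 8.71 at 12 weeks.

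**Figure D5:**
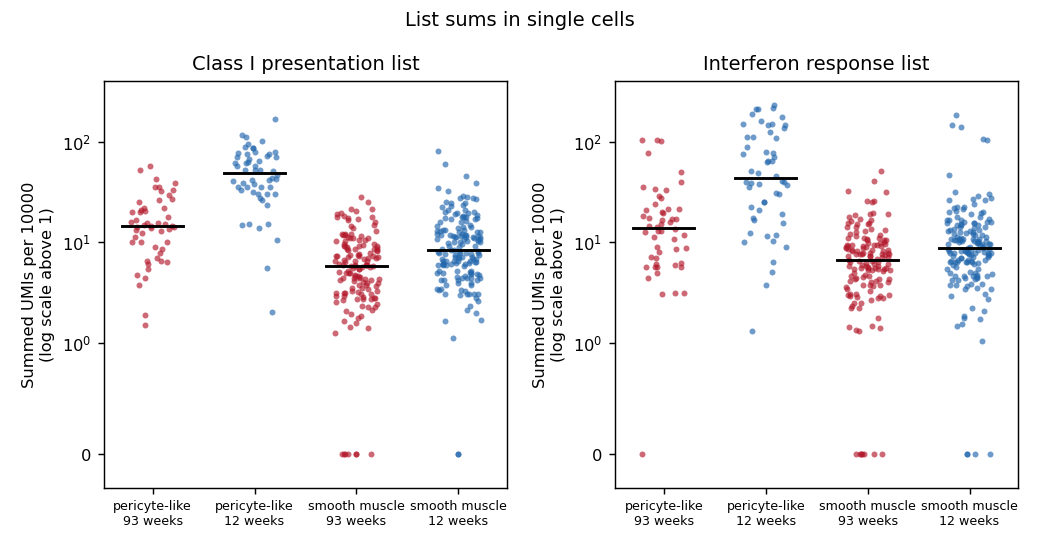
Each point is 1 cell, and the vertical axis gives the summed UMIs of the class I list (left) or the interferon list (right) per 10000 UMIs on a log scale above its linear start, with medians as black lines, for pericyte-like and Actg2-low smooth muscle-like cells at 93 weeks (red) and 12 weeks (blue). The pericyte-like class I medians are 14.5 at 93 weeks and 48.8 at 12 weeks, and those of smooth muscle-like cells are 5.76 at 93 weeks and 8.26 at 12 weeks.

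These lists were lower within each sex and without cells holding endothelial transcripts. In female cells (28 at 93 weeks and 29 at 12 weeks) the medians were -1.61 for class I, with 3 of 4 measured genes lower, and -1.69 for interferon, with 4 of 7 lower. In male cells (15 at 93 weeks and 19 at 12 weeks) they were -2.21, with 3 of 3 lower, and -2.19, with 7 of 8 lower. Blood endothelial-like cells held 859 CPM of B2m at 93 weeks and 1722 CPM at 12 weeks, 1840 CPM of H2-D1 at 93 weeks and 3089 CPM at 12 weeks, and 740 CPM of H2-K1 at 93 weeks and 1620 CPM at 12 weeks. Without every pericyte-like cell that held a UMI of a blood endothelial marker, 41 cells at 93 weeks and 24 at 12 weeks remained, and the medians were -1.63, with 3 of 3 lower, and -1.54, with 6 of 8 lower. With all cells as deposited, the shared ones at both ages included, the interferon median was -0.87 and the class I median -0.56, inside 2-fold, with log2 ratios of -1.07 for B2m, -0.85 for H2-D1 and -0.80 for H2-K1.

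Chemokine, cytokine and adhesion genes were lower in 5 of 10, with 0 higher and a median of -1.06. Ccl19 and Cxcl10 passed the filter through their 12-week cells alone. Ccl19, a ligand of the homing receptor CCR7, had 2 UMIs in 1 cell at 93 weeks and 105 UMIs in 15 cells at 12 weeks (log2 -5.00, interval -8.23 to -3.28). Ccl11, which attracts eosinophils, had 104 UMIs at 93 weeks and 347 at 12 weeks (log2 -1.19), and Icam1, an adhesion receptor, 28 at 93 weeks and 108 at 12 weeks (log2 -1.39). Cxcl10, an interferon-induced chemokine, had 2 UMIs in 2 cells at 93 weeks and 435 in 17 cells at 12 weeks, and Cxcl12 had 91 UMIs at 93 weeks and 465 at 12 weeks, with 1 cell holding over 20% of the UMIs of each. Il6 and Ccl2 were on the same side of 0 without reaching 2-fold, at -0.42 and -0.60.

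The other genes with the lowest ratios included the hyaluronan genes Has2, a hyaluronan synthase (15 UMIs at 93 weeks and 101 at 12 weeks, log2 -2.19), and Tnfaip6, a hyaluronan-binding protein (33 UMIs at 93 weeks and 188 at 12 weeks, log2 -1.96). Tnfaip6 stands at up to 4766 CPM in fibroblast-like cells, over 5 times its level here, and the part of free RNA in its value was not tested. Colec11, a collectin of innate immunity, had -2.38, Parp14, an interferon-induced ADP-ribosyltransferase, -2.35, and Cpne8, a calcium-dependent membrane-binding protein, -1.98. Receptor and regulator genes were also among the lower ones, with Rgs16 at 157 UMIs at 93 weeks and 642 at 12 weeks (log2 -1.48, interval -1.75 to -1.23) and Adra2a, an alpha-2 adrenergic receptor, at 28 UMIs at 93 weeks and 122 at 12 weeks (log2 -1.57, interval -2.23 to -0.98). Vtn was at 69 UMIs at 93 weeks and 192 at 12 weeks (log2 -0.93), the lowest ratio among the 10 unused pericyte markers measured, of which 0 passed 2-fold. Within each sex Vtn was past 2-fold lower, at -1.06 in female cells and -1.50 in male cells, and without cells holding a blood endothelial marker it stood at -1.18.

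Fewer genes were higher at 93 weeks. Sap18, a component of histone deacetylase and splicing complexes, had 117 UMIs at 93 weeks and 42 at 12 weeks (log2 2.01, interval 1.5 to 2.57), with 0.99 in smooth muscle-like cells. Mgp, the matrix Gla protein that inhibits calcification, ranged from 0 to 280 UMIs per 10000 with a median of 10.6 at 93 weeks and from 0 to 84.7 with a median of 3.79 at 12 weeks (2906 CPM at 93 weeks and 1194 CPM at 12 weeks, log2 1.28). Mgp reaches 6604 CPM in blood endothelial-like cells, and among pericyte-like cells with endothelial transcripts (11 at 93 weeks and 30 at 12 weeks) its ratio was -0.02, and it was 2.04 among those without (41 at 93 weeks and 24 at 12 weeks).

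Chka, a choline kinase, had 82 UMIs at 93 weeks and 40 at 12 weeks (log2 1.57, interval 1.02 to 2.16). Its ratio was 0.69 in female cells, with an interval that reaches 0, and 3.28 in male cells. The male value rests on 41 UMIs at 93 weeks and 7 at 12 weeks, too few to count as measured. There 1 cell held 35.4% of the UMIs. Ugdh, which makes the UDP-glucuronate used for hyaluronan, had 93 UMIs at 93 weeks and 43 at 12 weeks (log2 1.65), but fibroblast-like cells hold up to 2494 CPM of it. Ugdh had a ratio of 4.39 among cells without endothelial transcripts and -0.61 among those with them, so the value depends on which cells are counted. The remaining higher genes named by the rule were Vps37b (1.54), Impdh2, an enzyme of guanine nucleotide synthesis (1.5), Sema6d, a semaphorin (1.19), Cdk11b (1.18), Aoc3, the vascular adhesion protein 1 (1.04), Ythdc1, a reader of methylated RNA (1.03), Calu (1.01) and Tpm4, a tropomyosin (0.93).

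Structural lists had few genes past 2-fold between the ages. Contractile genes had 0 of 10 past 2-fold either way and a median of 0.40, and unused pericyte markers 0 of 10 and 0.37. Basement membrane genes had 0 of 8 and 0.40, respiratory chain genes 0 of 24 and 0.20, and fibrillar matrix genes 1 of 12 lower and 0.09. The 1 lower matrix gene was Tnc, tenascin C, with 21 UMIs at 93 weeks and 243 at 12 weeks and 1 cell holding over 20% of them. Immediate early genes, which respond to tissue dissociation, had 1 of 15 lower and a median of -0.22. The medians of the contractile, fibrillar matrix and immediate early lists changed sign under at least 1 other processing setting.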

How the data were processed

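Single-cell RNA was measured in 1 library pooled from 6 mice aged 93 weeks and 1 pooled from 6 mice aged 12 weeks, per the labels. The deposited values were natural log values, ln(1 + UMIs scaled to 10000 per cell), as found from the values; Seurat 5.0.3 and the builds GRCm39 and mm10 are named in the submitters' processing notes without a role. Which aligner and which cell filters were used is not stated there. UMIs recovered per cell were whole for 100% of values within 0.01. The 93-week rows carry no gene names and took the 12-week row order, under which mean levels of shared cells correlated at 0.991 (at most 0.037 with rows shifted). UMIs were summed per class (numpy 2.4.6, scipy 1.17.1, pandas 2.3.3), and log2 ratios of CPM took 1 CPM added, with exact conditional binomial 95% intervals. A gene 2-fold apart was counted by size alone, with no test. Named genes were those of the rule, the 12 highest and 12 lowest of the smaller ratio of both libraries, the 12 highest and 12 lowest between ages with at least 100 UMIs and no cell holding over 20%, and measured list members. The ranking between ages left out mitochondrial, ribosomal protein, haemoglobin and sex-linked genes and the Dcpp genes of the gland list. The members, lists and rules were chosen with earlier results of these data known. The calculations were tested on simulated data. Of the interferon list, 1 measured gene is counted in the list summaries and is not reported here.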

Additional observations from a re-analysis of the deposited data

Results flagged for a closer look

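Chka and Mgp had age differences of opposite sign in pericyte-like and Actg2-low smooth muscle-like cells, as did other genes such as Isg15. Chka had a log2 ratio of 93-week over 12-week CPM of 1.57 in pericyte-like cells and of -0.32 in Actg2-low smooth muscle-like cells. Mgp had 1.28 in pericyte-like cells and -0.21 in Actg2-low smooth muscle-like cells. By sex, Mgp in the smooth muscle-like cells was at -0.55 in female cells and 0.05 in male cells. With 1 library per age, the difference between the classes was not tested.

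Values of the 93-week table left out of the comparisons met the rule as well. By these values, 48 cells under barcodes that the 12-week table also lists were pericyte-like, and they were not counted as 93-week cells. Of them, 40 also met the rule in the 12-week table and were counted among its 54 pericyte-like cells. The other 8 met it in the 93-week table only.

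Gland and epithelial markers, foreign to a mural cell, gave 76 UMIs in the 93-week pericyte-like cells and 7 UMIs in the 12-week ones. The defining epithelial genes Epcam, Krt8, Krt18 and Cdh1 were at 0 in both.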

How the results depend on the processing

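No paired analysis was possible because each age has 1 library. For the same reason no replicate could be left out. With all cells as deposited, 26 genes were higher and 46 lower at 93 weeks (45 and 138 as reported), 317 were higher than in smooth muscle-like cells (190), and the medians were -0.56 for class I (-1.41), -0.87 for interferon (-1.88) and -0.70 for chemokines (-1.06); 48 of the 100 cells of the 93-week table are then shared with the 12-week table. With 4 of 5 markers required the 93-week share was 0.529% (0.744%), and Ythdc1 changed sign, to -0.0077. Without the condition of Rgs5 above Myh11 the shares were 1.6% at 93 weeks and 1.37% at 12 weeks, 76 genes were higher and 216 lower with age, and 54 were lower than in smooth muscle-like cells (271). Without possible doublets the 12-week share was 0.465% (0.739%) and 84 genes were lower. Without cells holding any blood endothelial marker, an alternative chosen after seeing the data, the 12-week share was 0.328%, 70 genes were lower and the chemokine median was -0.77. Thinned to 3000 UMIs, 29 genes were higher and 55 lower, 99 were higher than in smooth muscle-like cells, and the chemokine median was -0.66. In female cells alone the 93-week share was 1.09%, 48 genes were lower with age, and 87 were higher and 172 lower than in smooth muscle-like cells. In male cells alone the 93-week share was 0.430%, 28 genes were higher with age, 52 were higher and 154 lower than in smooth muscle-like cells, and the medians were -2.21 for class I (-1.41) and -1.33 for chemokines. As the mean of per-cell CPM the chemokine median was -0.68. A minimum of 100 UMIs gave 14 genes higher and 53 lower with age and 101 higher than in smooth muscle-like cells, and a minimum of 20 UMIs gave 210, 446 and 381. Counts fall with fewer cells or fewer genes measured by construction, and the cause of the other changes was not tested. The class I, interferon and chemokine medians stayed below 0 under each alternative run. Of 390 values for 30 named genes 327 stayed within their counting interval; 4 changed sign, 1 of Ythdc1 and the others of Abcc9, whose ratio as reported is 0.13. Of 168 values for the medians of 13 other lists 158 stayed within their interval; 15 changed sign, in 7 lists whose medians as reported lie between -0.22 and 0.40, so the sign of the age difference depended on the setting for mural transcription factors, endothelial to mural signalling, fibrillar matrix, contractile apparatus, calcium and chloride handling, nitric oxide and cGMP, or immediate early genes. Depth limits genes of few UMIs: at 52 and 54 cells, a count of 0 allows up to 11.8 CPM at 93 weeks and 8.08 CPM at 12 weeks.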
